A study of Danio rerio with 12 samples.

Results

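The genes described here build the light response of the photoreceptors, leaving out the visual opsins, together with a few genes of the cells that serve photoreceptors. They were taken by name from a list of 45 zebrafish gene symbols, of which 43 could be matched to an Ensembl gene ID of the count files and 2, gngt1 and pde6a, could not. The matches came to 50 gene IDs of 32105, because the table of names gives some zebrafish copies the name of their shared human counterpart and every ID with such a name was taken. All 50 passed the filter on low counts, and the lowest count of any of them in any library was 13. IDs were assigned to classes by the known place of expression of the listed gene they matched. These were 13 for rods, 17 for cones and 16 for both cell types or for neither with certainty (here called mixed). The other 4 were assigned to the supporting pigment epithelium and Müller glia. Where copies share a name, the table does not say which copy is which, so each is given with its ID. How reads shared by similar copies were counted is not given in the sources used here, and values of such copies are uncertain to that extent.

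In the outer segment of a photoreceptor, light activates an opsin, the opsin activates the G protein transducin, and transducin releases the inhibitory gamma subunits of phosphodiesterase 6, which then breaks down cyclic GMP. Cyclic nucleotide-gated channels close as cyclic GMP falls, and the cell hyperpolarizes. The response is ended by opsin kinases, arrestins and the RGS9 complex, and cyclic GMP is restored by guanylate cyclases under the control of calcium-binding activators. Rods and cones use separate copies of most of these proteins. Zebrafish larvae of this age see mainly with cones, since rods mature later.

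Each library came from a pool of 10 whole larvae collected 119 hours after fertilization, at an age of 5 days. Wild-type TAB14 larvae were compared with larvae from an incross of fish homozygous for a whole-body as3mt mutation, an 8 bp deletion in exon 3 that brings a premature stop, in the ABNYU background. Larvae of each genotype were left untreated (0 mM) or exposed to inorganic arsenic (iAs) at 1 mM starting 6 hours after fertilization, with 3 libraries in each of the 4 groups. Genotype and strain background went together and cannot be told apart. The enzyme encoded by as3mt methylates inorganic arsenic. Its transcript (AS3MT, ENSDARG00000027572) stood at 14.3 to 17.2 CPM (read counts relative to the scaled library size) in untreated wild type, 9.73 to 9.93 in treated wild type, 9.21 to 9.91 in the untreated mutant and 3.02 to 3.51 in the treated mutant. Reads outside the deletion count too, and protein was not measured. Library totals ran from 28909467 to 43759270 counts. Leaving out any single library moved none of 76 fold changes of members, picked by the rule given with the processing, by more than 1.224 times. All 76 were picked because they were called in the main fit. Over all 250 pairs of member and comparison, leaving out single libraries lost a call for 19 and gained one for 17. Other fold changes given here were not part of that check.

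Most of the 50 genes fell in iAs in both genotypes. By a test of the difference, 28 of the 50 had a lower response in the mutant, against 17.9% of all genes. In wild type 36 of the 50 genes fell and 0 rose (edgeR quasi-likelihood test, adjusted p below 0.05), against 22.2% of all 23096 genes tested that fell and 22.6% that rose. In the mutant 44 fell and 2 rose, against 32.6% and 31.1% of all genes (63.6% in either direction). These counts include the 4 support genes. Of the 46 rod, cone and mixed genes, 35 fell in wild type, and 40 fell and 2 rose in the mutant. A lower response in the mutant was called for 24 of these 46. The median log2 fold change of the 50 genes was -0.43 in wild type and -1.02 in the mutant, where that of all genes was 0.01 in both. None of the members was called higher in wild type at an unadjusted p below 0.05 either, nor by DESeq2. Falls of at least 2-fold were called for 2 members in wild type and 25 in the mutant. The share of all genes with falls of that size was not counted, so these 2 counts have no baseline. Fewer photoreceptors and less RNA per photoreceptor cannot be told apart in whole larvae.

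Rod and cone genes are set side by side here. In wild type 16 of the 17 cone genes fell, with a median log2 fold change of -0.60. Of the 13 rod genes 7 fell, with a median of -0.41. In the mutant 16 cone genes fell and 1 rose (median -1.21), and 12 rod genes fell and 0 rose (median -0.96). The mixed genes had medians of -0.39 in wild type and -0.57 in the mutant. The classes were compared by counts and medians, with no test of the difference between rods and cones. Counts of calls also depend on how precisely each gene was measured. In wild type the rod gene SLC24A1 was not called at -0.24 (SE 0.13), and the cone gene RCVRN (ENSDARG00000019902) was called at -0.25 (SE 0.06). The other rod genes not called differed in size. PDE6B (ENSDARG00000011671) stood at -0.23 (SE 0.10) and CNGA1 (ENSDARG00000029898) at -0.35 (SE 0.15). Little or no fall was seen for gnb1b at -0.05 (SE 0.05), cngb1a at -0.02 (SE 0.14) and PDE6G at 0.18 (SE 0.10). With the rod gene gnb1b, which many neurons express, and the transcription factor gene NR2E3 left out, the rod medians were -0.43 and -1.05. That omission was chosen after seeing the data.

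**Figure D1:**
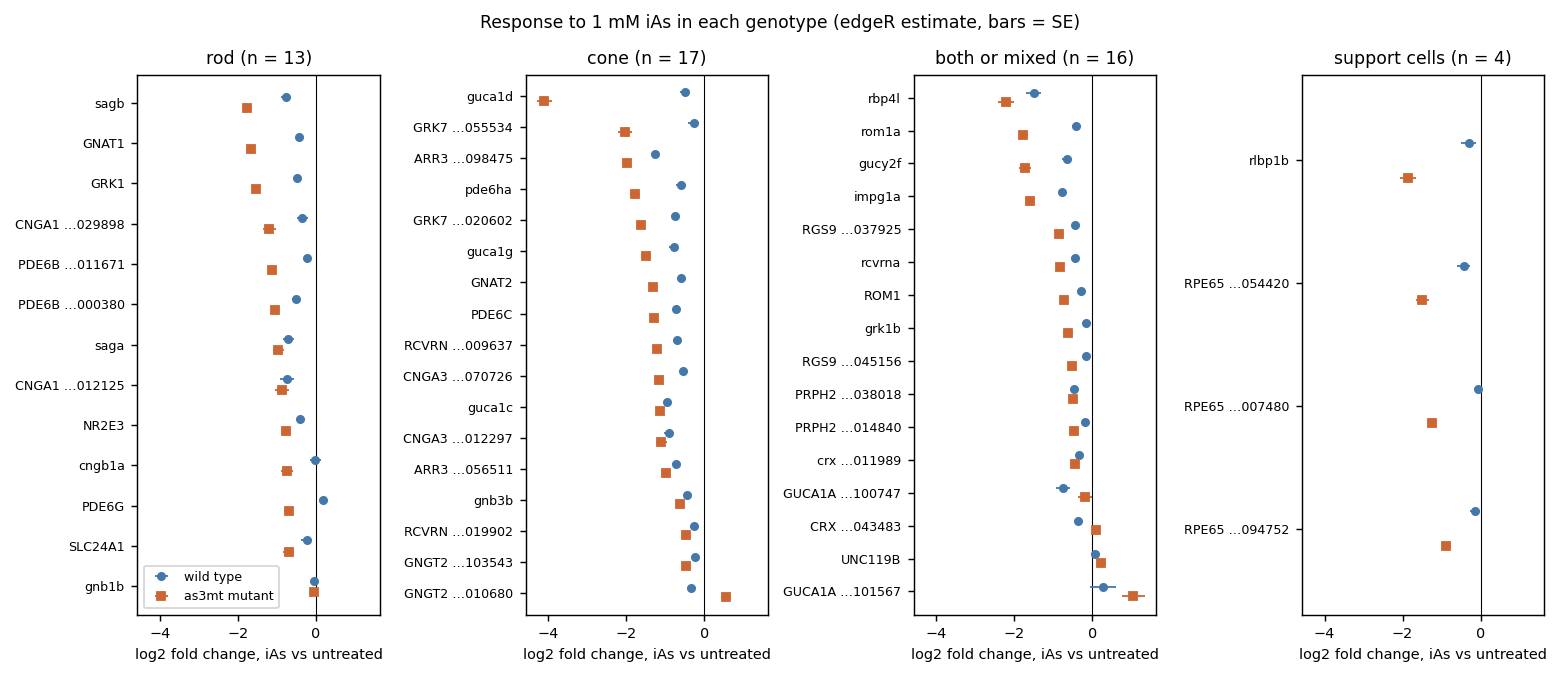
Log2 fold change (x axis, treated against untreated larvae) of each of the 50 genes, in wild type (blue circles) and in the as3mt mutant (orange squares), by class, with standard errors as bars and numbers after a name giving the end of its Ensembl ID. The orange squares lie left of the blue circles for 45 of the 50 genes, guca1d lies farthest left at -4.10, and the GNGT2 copy that rose in the mutant lies on opposite sides of 0 in the 2 genotypes.

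Transducin carries the signal from opsin to phosphodiesterase. Its cone alpha subunit gene GNAT2 (ENSDARG00000042529) stood at 728, 750.0 and 719.9 CPM in untreated and 524, 480.5 and 442 in treated wild type. Mutant libraries held 570.0, 552 and 564 CPM untreated and 202, 247 and 233 treated, so the 4 groups did not overlap. GNAT2 fell 1.52-fold in wild-type larvae (log2 fold change -0.60, SE 0.07, adjusted p = 2.83e-06), against 2.47-fold in mutants (log2 fold change -1.31, SE 0.07, adjusted p = 5.06e-11). The rod alpha subunit gene GNAT1 (ENSDARG00000044199) had 83.5, 92.3 and 96.5 CPM in untreated and 80.7, 61.8 and 60.0 in treated wild type. It had 76.4, 81.3 and 80.2 CPM in the untreated mutant and 24.4, 24.6 and 25.9 in the treated one, whose libraries were far below all others. The fall of GNAT1 was 1.35-fold in wild-type larvae and 3.18-fold in mutants, and the responses differed (interaction -1.24, SE 0.13, adjusted p = 1.98e-06).

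The beta and gamma subunits of transducin did not follow one pattern. The cone beta subunit gene gnb3b fell 1.35-fold in wild type, from 444 ± 24.2 to 329.5 ± 18.4 CPM (SD, n = 3 per group). Its fall in the mutant was 1.55-fold, from 339.9 ± 7.37 to 220.0 ± 12.6 (SD, n = 3 per group). Its responses were not called different (interaction -0.20, SE 0.09, adjusted p = 0.0976). Levels of gnb1b, the beta subunit gene of rods, lay between 212 and 235 CPM in all 12 libraries, and it was not called in any comparison (log2 fold change -0.05 in wild type and -0.05 in the mutant). This beta subunit also serves other G proteins of the nervous system. A gamma subunit gene, GNGT2 (ENSDARG00000103543), fell 1.19-fold in treated wild type and 1.37-fold in treated mutants. The other copy, GNGT2 (ENSDARG00000010680), had responses of opposite sign. It stood at 20.7, 23.5 and 20.5 CPM in untreated and 21.6, 16.0 and 14.2 in treated wild type, which overlap. In the mutant it stood at 17.7, 14.8 and 18.9 untreated and 24.8, 25.1 and 25.8 treated, with all treated libraries higher. The copy fell 1.26-fold in wild type (log2 fold change -0.33, SE 0.12, adjusted p = 0.0373) and rose 1.48-fold in the mutant (log2 fold change 0.56, SE 0.12, adjusted p = 0.000637). The responses differed (interaction 0.89, SE 0.17, adjusted p = 0.000897). Its wild-type fall was not called without replicate 2 of treated wild type (adjusted p = 0.134), without replicate 3 of treated wild type (adjusted p = 0.176), without replicate 1 of untreated wild type (adjusted p = 0.0569) and without replicate 2 of untreated wild type (adjusted p = 0.158), and that of the first copy was not called without replicate 3 of treated wild type (adjusted p = 0.0898), without replicate 1 of untreated wild type (adjusted p = 0.0799) and without replicate 2 of untreated wild type (adjusted p = 0.0657).

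Phosphodiesterase 6 has catalytic subunits and small inhibitory gamma subunits. The cone catalytic gene PDE6C (ENSDARG00000100397) had 594, 610.0 and 614 CPM in untreated and 396, 354 and 343 in treated wild type. Its mutant values were 487, 458 and 487 untreated and 201, 191 and 195 treated, and no group overlapped another. PDE6C fell 1.66-fold in wild-type larvae (log2 fold change -0.73, SE 0.06, adjusted p = 2.33e-08), against 2.44-fold in mutants (log2 fold change -1.29, SE 0.06, adjusted p = 5.14e-12). The cone inhibitory gene pde6ha (ENSDARG00000102558) had 226, 192 and 183 CPM in untreated and 155, 106 and 139 in treated wild type. Untreated mutant libraries held 117, 119 and 158 CPM of it, overlapping treated wild type, and treated mutant libraries 41.0, 35.4 and 39.1. Its fall was 1.51-fold in wild-type larvae and 3.41-fold in mutants (interaction -1.18, SE 0.18, adjusted p = 9.18e-05).

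The 2 IDs named PDE6B are rod catalytic genes. PDE6B (ENSDARG00000011671) had 27.3, 30.8 and 36.4 CPM in untreated and 29.1, 26.5 and 24.8 in treated wild type, which overlap. In the mutant it had 24.6, 26.1 and 29.1 untreated and 11.8, 11.2 and 13.5 treated. Only the mutant change was called (1.17-fold lower with adjusted p = 0.0748, and 2.18-fold lower with adjusted p = 5.14e-08), and the responses differed (interaction -0.90, SE 0.15, adjusted p = 0.0002). A wild-type fall was called without replicate 1 of treated wild type (adjusted p = 0.0384) and without replicate 1 of untreated wild type (adjusted p = 0.0233). The other copy, PDE6B (ENSDARG00000000380), had 21.8, 22.6 and 24.0 CPM in untreated and 16.6, 15.9 and 15.5 in treated wild type, and 15.9, 17.0 and 18.5 (untreated) and 9.76, 7.53 and 7.49 (treated) in the mutant. Here no treated library reached an untreated one of its genotype. Its falls were 1.43-fold and 2.07-fold (interaction -0.54, SE 0.14, adjusted p = 0.00773). PDE6G (ENSDARG00000101984), the rod inhibitory gene and the match for pde6gb, had 10.1, 12.3 and 12.8 CPM in untreated and 13.5, 12.6 and 13.7 in treated wild type. In the mutant the values were 12.7, 13.8 and 15.5 untreated and 8.95, 8.64 and 8.11 treated. PDE6G was 1.13-fold higher in treated wild type, which was not called (adjusted p = 0.182), and fell 1.63-fold in the mutant, and the responses differed (interaction -0.88, SE 0.15, adjusted p = 0.000257).

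Cyclic nucleotide-gated channels turn the cyclic GMP level into a current. The cone channel gene CNGA3 (ENSDARG00000070726) had 62.7, 71.8 and 64.4 CPM in untreated and 49.1, 45.4 and 41.1 in treated wild type, and 55.7, 50.2 and 58.4 (untreated) and 23.0, 25.7 and 25.3 (treated) in the mutant. Treated libraries lay below untreated ones in both genotypes, and the falls were 1.47-fold and 2.22-fold (interaction -0.60, SE 0.11, adjusted p = 0.000728). The second cone copy, CNGA3 (ENSDARG00000012297), had 20.8, 20.6 and 21.6 CPM in untreated and 14.0, 10.95 and 8.58 in treated wild type, and 16.4, 15.3 and 16.8 (untreated) and 7.31, 7.14 and 8.24 (treated) in the mutant. It fell 1.89-fold and 2.14-fold, and the 2 falls were not called different (interaction -0.18, SE 0.18, adjusted p = 0.493).

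Among rod channel genes, CNGA1 (ENSDARG00000029898) had 5.93, 6.60 and 5.95 CPM in untreated and 6.07, 4.13 and 4.39 in treated wild type, which overlap. It had 5.00, 4.45 and 5.68 in the untreated and 2.16, 2.21 and 2.19 in the treated mutant, a fall of 2.30-fold (interaction -0.85, SE 0.22, adjusted p = 0.00762). A wild-type fall was called without replicate 1 of treated wild type (adjusted p = 0.00675). The second copy, CNGA1 (ENSDARG00000012125), had 6.96, 6.86 and 7.93 CPM in untreated and 5.77, 3.73 and 3.57 in treated wild type, and 4.95, 5.38 and 4.21 (untreated) and 2.72, 2.95 and 2.29 (treated) in the mutant. Its falls were close in size, 1.68-fold and 1.82-fold (interaction -0.12, SE 0.25, adjusted p = 0.754). For the rod channel beta subunit gene cngb1a (ENSDARG00000068242), wild type had 10.2, 9.54 and 7.97 CPM untreated and 8.78, 10.98 and 7.53 treated, and the mutant 7.67, 8.46 and 8.70 (untreated) and 5.15, 5.49 and 4.01 (treated). The wild-type groups overlapped, with a log2 fold change of -0.02 (SE 0.14). The mutant fell 1.69-fold (interaction -0.73, SE 0.21, adjusted p = 0.0131). SLC24A1, the rod exchanger that removes calcium from the outer segment, was 1.18-fold lower in treated wild type (adjusted p = 0.143) and fell 1.63-fold in the mutant (adjusted p = 0.000249). Its responses were not called different (adjusted p = 0.077), but were without replicate 3 of the treated mutant (adjusted p = 0.0494) and without replicate 3 of untreated wild type (adjusted p = 0.0371).

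Guanylate cyclase activating proteins sense calcium and switch on the cyclases that remake cyclic GMP. The cone activator guca1d (ENSDARG00000044629) had the largest change of the 50 genes in the mutant. It had 6.63, 6.68 and 6.26 CPM in untreated and 5.59, 3.97 and 4.41 in treated wild type. The untreated mutant held 7.59, 6.56 and 7.77 CPM, level with untreated wild type, and the treated mutant 0.405, 0.368 and 0.501, from raw counts of 15, 13 and 16. It fell 1.41-fold in wild-type larvae (log2 fold change -0.49, SE 0.14, adjusted p = 0.00834), against 17.2-fold in mutants (log2 fold change -4.10, SE 0.19, adjusted p = 5.63e-12). The wild-type fall was not called without replicate 2 of treated wild type (adjusted p = 0.0545). The difference of the responses was -3.61 on the log2 scale (SE 0.25, adjusted p = 1.84e-08). The related cone activator guca1g (ENSDARG00000045737) had 20.9, 21.6 and 16.6 CPM in untreated and 10.6, 11.7 and 12.2 in treated wild type, and 14.2, 12.6 and 15.6 (untreated) and 4.50, 5.64 and 4.89 (treated) in the mutant. The 4 groups did not overlap, with untreated wild type highest and the treated mutant lowest, and the falls in iAs were 1.71-fold and 2.82-fold (interaction -0.72, SE 0.17, adjusted p = 0.00366).

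Other genes of this step behaved differently. For guca1c (ENSDARG00000030758), also a cone activator, the wild-type values were 21.8, 25.0 and 21.2 CPM untreated and 12.9, 12.1 and 9.97 treated, and the mutant ones 17.7, 18.8 and 17.6 (untreated) and 8.22, 8.41 and 8.17 (treated). It fell by close amounts, 1.95-fold and 2.18-fold (interaction -0.17, SE 0.14, adjusted p = 0.405). The name GUCA1A, used to match guca1e, is carried by 2 IDs. GUCA1A (ENSDARG00000100747) had 6.88, 6.21 and 5.18 CPM in untreated and 3.52, 2.98 and 4.32 in treated wild type, and 4.52, 4.37 and 4.92 (untreated) and 5.07, 3.11 and 3.88 (treated) in the mutant. It fell 1.69-fold in wild type (adjusted p = 0.00207) and was not called in the mutant (log2 fold change -0.19, adjusted p = 0.371). The difference between the genotypes was not called (adjusted p = 0.0995), but it was called without replicate 2 of the treated mutant (interaction 0.75, adjusted p = 0.0248) and without replicate 3 of treated wild type (interaction 0.73, adjusted p = 0.0457). GUCA1A (ENSDARG00000101567) was near the lower end of measurement, at 0.780, 0.464 and 0.800 CPM in untreated and 0.962, 0.768 and 0.732 in treated wild type. Values in the mutant were 0.807, 0.741 and 1.16 untreated and 2.53, 1.25 and 1.82 treated. It rose 2.07-fold in the mutant (log2 fold change 1.05, SE 0.30, adjusted p = 0.00548), a call lost without replicate 1 of the treated mutant (log2 fold change 0.76, adjusted p = 0.0538). The retinal cyclase gene gucy2f (ENSDARG00000025504) had 5.68, 6.01 and 6.33 CPM in untreated and 4.42, 3.25 and 3.84 in treated wild type, and 5.50, 5.19 and 5.31 (untreated) and 1.46, 1.73 and 1.63 (treated) in the mutant. All treated libraries were below the untreated ones, and it fell 1.57-fold and 3.32-fold (interaction -1.08, SE 0.21, adjusted p = 0.000736).

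**Figure D2:**
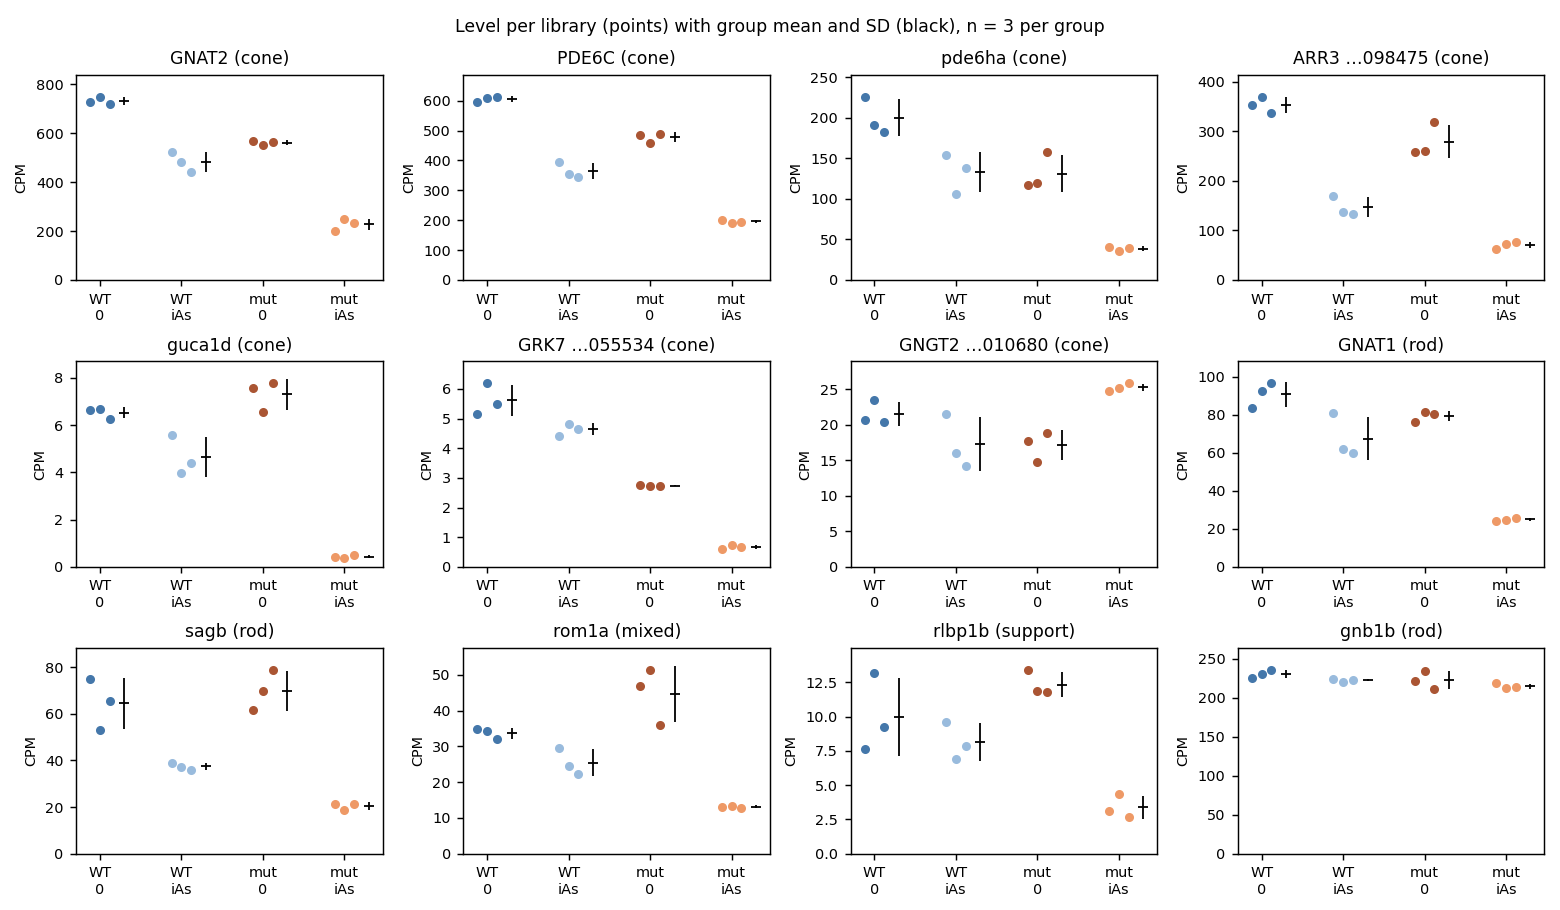
Level in CPM (y axis from 0) of 12 genes in each library (points) with group mean and SD in black, n = 3 per group, for wild type (WT) and mutant (mut), untreated (0) or in iAs. The treated mutant has the lowest group mean in every panel except that of GNGT2, gnb1b is level within 212 to 235 CPM, and the GNGT2 copy shown is highest in the treated mutant.

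Arrestins cap the activated, phosphorylated opsin. Cone arrestin ARR3 (ENSDARG00000098475) had 352, 370.3 and 338 CPM in untreated and 170.2, 137 and 133 in treated wild type. It had 259, 260.1 and 318 in the untreated and 62.9, 72.1 and 76.0 in the treated mutant, with no overlap between any 2 groups. This copy fell 2.41-fold in wild-type larvae (log2 fold change -1.27, SE 0.10, adjusted p = 1.08e-08), against 3.97-fold in mutants (interaction -0.72, SE 0.14, adjusted p = 0.000735). The other cone copy, ARR3 (ENSDARG00000056511), had 354, 353 and 327 CPM in untreated and 227, 211 and 182 in treated wild type, and 202, 212 and 245 (untreated) and 108, 118 and 106 (treated) in the mutant. Untreated mutant libraries overlapped treated wild type, and the falls in iAs were 1.67-fold and 1.99-fold (interaction -0.26, SE 0.12, adjusted p = 0.108), with an interaction called without replicate 3 of treated wild type (adjusted p = 0.0295). Of the rod arrestins, sagb (ENSDARG00000038378) had 74.9, 53.1 and 65.3 CPM in untreated and 39.1, 37.2 and 36.0 in treated wild type, and 61.5, 69.6 and 78.7 (untreated) and 21.5, 18.7 and 21.5 (treated) in the mutant. The untreated genotypes overlapped and the treated mutant was lowest, with falls of 1.72-fold and 3.40-fold (interaction -0.98, SE 0.15, adjusted p = 0.000114). The second rod arrestin, saga (ENSDARG00000012610), had 74.7, 77.7 and 92.0 CPM in untreated and 61.4, 47.9 and 40.4 in treated wild type, and 46.5, 61.2 and 55.7 (untreated) and 23.9, 28.2 and 31.7 (treated) in the mutant. It fell 1.64-fold and 1.95-fold, a difference that was not called (interaction -0.25, SE 0.19, adjusted p = 0.339).

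Opsin kinases phosphorylate the activated pigment before arrestin binds. The cone kinase GRK7 (ENSDARG00000020602) had 226, 235 and 230.1 CPM in untreated and 146, 137 and 129 in treated wild type, and 176, 167 and 174 (untreated) and 46.2, 61.5 and 60.3 (treated) in the mutant. No 2 groups overlapped, and it fell 1.67-fold and 3.08-fold (interaction -0.88, SE 0.12, adjusted p = 2.62e-05). The low copy, GRK7 (ENSDARG00000055534), had 5.15, 6.19 and 5.50 CPM in untreated and 4.42, 4.83 and 4.67 in treated wild type. Mutant libraries held 2.75, 2.72 and 2.74 untreated and 0.593, 0.736 and 0.658 treated, all below wild type. It was the 1 cone gene not called in wild type (log2 fold change -0.27, adjusted p = 0.107), and it fell 4.12-fold in the mutant (interaction -1.77, SE 0.22, adjusted p = 1.54e-05). The rod kinase GRK1 (ENSDARG00000058803), the match for grk1a, had 30.8, 32.6 and 36.2 CPM in untreated and 26.1, 22.4 and 22.8 in treated wild type, and 25.0, 26.1 and 25.0 (untreated) and 7.98, 9.40 and 8.96 (treated) in the mutant. Treated mutant libraries lay far below the rest, and GRK1 fell 1.40-fold and 2.89-fold (interaction -1.05, SE 0.12, adjusted p = 6.87e-06). The kinase gene grk1b was not called in wild type (log2 fold change -0.16, adjusted p = 0.307) and fell 1.54-fold in the mutant, a difference that was not called (interaction -0.46, SE 0.17, adjusted p = 0.0517). It was called without replicate 2 of the treated mutant (adjusted p = 0.00921), without replicate 3 of treated wild type (adjusted p = 0.0368) and without replicate 2 of untreated wild type (adjusted p = 0.0292).

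Recoverins hold the opsin kinase back in the dark, and RGS9 speeds the shut-off of transducin. RCVRN (ENSDARG00000009637) had 258, 262 and 259 CPM in untreated and 174, 166 and 143 in treated wild type, and 209, 209.5 and 212 (untreated) and 78.8, 102 and 90.9 (treated) in the mutant. Its groups did not overlap, and it fell 1.62-fold and 2.32-fold (interaction -0.52, SE 0.12, adjusted p = 0.0024). The other cone recoverin, RCVRN (ENSDARG00000019902), fell only 1.19-fold and 1.38-fold, from 204 ± 6.11 to 171 ± 4.57 CPM in wild type and from 162 ± 5.67 to 118 ± 5.62 in the mutant (SD, n = 3 per group). The recoverin gene rcvrna fell 1.37-fold and 1.78-fold (interaction -0.38, SE 0.15, adjusted p = 0.0689), with an interaction called without replicate 2 of the treated mutant (adjusted p = 0.0199), without replicate 1 of the untreated mutant (adjusted p = 0.0494) and without replicate 3 of treated wild type (adjusted p = 0.0194). RGS9 (ENSDARG00000037925) had 47.6, 44.0 and 41.9 CPM in untreated and 34.3, 33.0 and 30.5 in treated wild type, and 35.6, 35.8 and 34.8 (untreated) and 17.4, 21.4 and 19.6 (treated) in the mutant. Both genotypes fell, 1.37-fold and 1.82-fold (interaction -0.41, SE 0.11, adjusted p = 0.00887). The second copy, RGS9 (ENSDARG00000045156), was not called in wild type (log2 fold change -0.16, adjusted p = 0.209) and fell 1.43-fold in the mutant (interaction -0.36, SE 0.14, adjusted p = 0.0627), with an interaction called without replicate 3 of the untreated mutant (adjusted p = 0.0491) and without replicate 1 of untreated wild type (adjusted p = 0.0177).

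Genes for the structure of the outer segment and its surroundings differed in how far they fell. Peripherins and ROM1 proteins shape the rims of the membrane discs. PRPH2 (ENSDARG00000014840) had 147, 142 and 147 CPM in untreated and 134, 127 and 121 in treated wild type, and 112, 117 and 119 (untreated) and 84.1, 88.1 and 80.0 (treated) in the mutant. It fell 1.14-fold and 1.38-fold (interaction -0.27, SE 0.08, adjusted p = 0.0178), and the interaction was -0.24 with adjusted p = 0.0537 without replicate 3 of the treated mutant. The other copy, PRPH2 (ENSDARG00000038018), fell almost equally, 1.38-fold and 1.41-fold (interaction -0.04, SE 0.09, adjusted p = 0.792). ROM1 (ENSDARG00000026926), the match for rom1b, had 24.4, 22.6 and 24.0 CPM in untreated and 21.0, 18.8 and 18.4 in treated wild type, and 18.7, 18.6 and 19.9 (untreated) and 11.4, 11.2 and 12.0 (treated) in the mutant, with falls of 1.22-fold and 1.66-fold (interaction -0.44, SE 0.11, adjusted p = 0.00611). The paralogue rom1a (ENSDARG00000019752) had its highest level in the untreated mutant. It had 34.8, 34.3 and 32.0 CPM in untreated and 29.6, 24.4 and 22.3 in treated wild type. Untreated mutant libraries held 46.9, 51.3 and 36.1 CPM and treated mutant libraries, the lowest group, 13.2, 13.5 and 12.7. Its falls were 1.33-fold and 3.41-fold (interaction -1.36, SE 0.16, adjusted p = 7.4e-06). The gene impg1a (ENSDARG00000077187), which encodes a proteoglycan of the matrix between photoreceptors, stood at 33.4, 34.9 and 32.8 CPM in untreated and 21.4, 20.3 and 17.6 in treated wild type. In the mutant it stood at 27.0, 26.9 and 25.9 untreated and 9.20, 9.01 and 8.27 treated. It fell 1.71-fold and 3.01-fold (interaction -0.82, SE 0.11, adjusted p = 4.38e-05). UNC119B, which helps move lipid-anchored proteins such as transducin to the outer segment, lay between 20.4 and 33.9 CPM in all libraries and was not called in any comparison. Without replicate 2 of the treated mutant it was called higher in that genotype (log2 fold change 0.36, adjusted p = 0.0107).

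Among the members, the transcription factor genes crx, CRX and NR2E3 changed by less than 2-fold. Genes of further transcription factors, some with larger changes, are given below. The photoreceptor homeobox gene crx (ENSDARG00000011989) had 62.3, 64.2 and 68.0 CPM in untreated and 54.8, 49.5 and 50.2 in treated wild type, and 56.7, 56.9 and 54.2 (untreated) and 42.5, 38.7 and 41.8 (treated) in the mutant. It fell by close amounts, 1.26-fold in wild type (log2 fold change -0.33, SE 0.06, adjusted p = 0.000359) compared with 1.37-fold in the mutant (log2 fold change -0.45, SE 0.06, adjusted p = 7.21e-06). A second ID named CRX (ENSDARG00000043483) had 40.0, 44.2 and 49.1 CPM in untreated and 37.5, 34.5 and 31.7 in treated wild type, and 31.3, 33.0 and 31.4 (untreated) and 37.4, 29.2 and 35.1 (treated) in the mutant, where the groups overlapped. It fell 1.28-fold in wild type, was not called in the mutant (log2 fold change 0.09, adjusted p = 0.428), and its responses differed (interaction 0.45, SE 0.13, adjusted p = 0.0151). Without replicate 3 of untreated wild type that interaction was 0.36 with adjusted p = 0.0516. Without replicate 2 of the treated mutant the gene was called higher in that genotype (log2 fold change 0.21, adjusted p = 0.0469). The nuclear receptor gene NR2E3 (ENSDARG00000045904), which sets the rod programme, had 45.3, 46.6 and 53.2 CPM in untreated and 41.2, 35.6 and 32.8 in treated wild type, and 33.8, 35.3 and 37.2 (untreated) and 23.9, 18.7 and 20.1 (treated) in the mutant. It fell 1.32-fold and 1.69-fold (interaction -0.35, SE 0.14, adjusted p = 0.0589), with an interaction called without replicate 1 of the treated mutant (adjusted p = 0.0121), without replicate 3 of treated wild type (adjusted p = 0.0326) and without replicate 3 of untreated wild type (adjusted p = 0.0301).

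Genes of retinoid handling had a large fall in both genotypes for rbp4l and in the mutant for the support cells. The retinol-binding gene rbp4l (ENSDARG00000044684) had 13.6, 10.8 and 11.3 CPM in untreated and 5.05, 3.27 and 4.37 in treated wild type, and 8.68, 9.17 and 14.7 (untreated) and 2.72, 1.98 and 2.25 (treated) in the mutant. Treated libraries lay below all untreated ones, and its fall of 2.83-fold was the largest of any member in wild type (log2 fold change -1.50, SE 0.19, adjusted p = 6.91e-06). In the mutant it fell 4.66-fold (interaction -0.72, SE 0.29, adjusted p = 0.0672), and the interaction was called without replicate 1 of the treated mutant (adjusted p = 0.0498), without replicate 1 of the untreated mutant (adjusted p = 0.0355) and without replicate 2 of treated wild type (adjusted p = 0.0292). The listed gene rpe65a encodes the isomerase of the pigment epithelium that returns retinal to its light-sensitive form. The name RPE65 is carried by 3 IDs. Which of them is rpe65a is not known, and the place of expression of the other copies was not checked. RPE65 (ENSDARG00000007480) had 99.4, 111 and 90.2 CPM in untreated and 104, 86.0 and 96.1 in treated wild type, which overlap. The mutant held 101, 111 and 115 CPM untreated and 42.7, 54.9 and 40.8 treated. It was not called in wild type (log2 fold change -0.07, adjusted p = 0.592), fell 2.36-fold in the mutant, and the responses differed (interaction -1.17, SE 0.14, adjusted p = 1.13e-05).

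RPE65 (ENSDARG00000054420) had 4.21, 4.51 and 4.38 CPM in untreated and 3.67, 2.57 and 3.50 in treated wild type, and 5.07, 4.47 and 5.37 (untreated) and 1.48, 1.98 and 1.85 (treated) in the mutant. It fell 1.35-fold in wild type (adjusted p = 0.0372) and 2.81-fold in the mutant (interaction -1.06, SE 0.24, adjusted p = 0.00257). The wild-type call was lost without any one of the 3 untreated libraries (adjusted p = 0.0617, 0.104 and 0.0763 without replicates 1, 2 and 3) and without treated replicate 2 (adjusted p = 0.198). RPE65 (ENSDARG00000094752) had 11.1, 12.4 and 12.2 CPM in untreated and 10.7, 10.6 and 10.9 in treated wild type, and 14.9, 16.2 and 12.7 (untreated) and 6.36, 9.46 and 8.08 (treated) in the mutant, a fall called in the mutant alone, 1.83-fold (interaction -0.73, SE 0.18, adjusted p = 0.00424). The retinal-binding protein gene rlbp1b (ENSDARG00000045808), expressed in Müller glia, had 7.60, 13.2 and 9.22 CPM in untreated and 9.62, 6.89 and 7.85 in treated wild type. It had 13.4, 11.8 and 11.8 in the untreated and 3.13, 4.33 and 2.69 in the treated mutant. Only its mutant fall of 3.63-fold was called, and the responses differed (interaction -1.55, SE 0.27, adjusted p = 0.000298). A wild-type fall was called without replicate 1 of untreated wild type (adjusted p = 0.0491). All 4 support genes fell in the mutant (median -1.36), where 32.6% of all genes fell. In wild type 1 of 4 fell (median -0.23), a share near the 22.2% of all genes. Of the 4 IDs, 3 share the name RPE65 and came from 1 listed gene.

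Without arsenic, many of these genes were already lower in the mutant. Of the 50 genes 26 were lower and 1 was higher in the untreated mutant, against 6.82% and 6.64% of all genes, with a median log2 fold change of -0.32. The lower ones were 13 of 17 cone genes (median -0.34), 5 of 13 rod genes (median -0.29) and 8 of 16 mixed genes (median -0.28). These counts depend on the size of each change and on its precision. The rod gene SLC24A1 was not called at a log2 fold change of -0.33 (SE 0.13, adjusted p = 0.12). Other rod genes not called were CNGA1 (ENSDARG00000029898) at -0.29 (SE 0.15), PDE6B (ENSDARG00000011671) at -0.24 (SE 0.10) and GNAT1 at -0.19 (SE 0.09). The rest were cngb1a at -0.16 (SE 0.145), gnb1b at -0.05 (SE 0.05), sagb at 0.12 (SE 0.10) and PDE6G at 0.26 (SE 0.10). The cone gene RCVRN (ENSDARG00000009637) was called at -0.31 (SE 0.08, adjusted p = 0.0172). None of the 4 support genes was called by edgeR (1 at an unadjusted p below 0.05, 0 by DESeq2), and their median was 0.24. Among cone genes the low copy of GRK7 (ENSDARG00000055534) was 2.05-fold lower (log2 fold change -1.04, SE 0.14, adjusted p = 6.23e-05). ARR3 (ENSDARG00000056511) was 1.57-fold lower (log2 fold change -0.65, SE 0.08, adjusted p = 3.31e-05) and pde6ha 1.52-fold lower (log2 fold change -0.61, SE 0.12, adjusted p = 0.00291). Among rod genes saga was 1.50-fold lower (log2 fold change -0.58, SE 0.13, adjusted p = 0.00657) and NR2E3 1.36-fold lower (log2 fold change -0.45, SE 0.10, adjusted p = 0.00379), while sagb was not called (adjusted p = 0.523). CNGA1 (ENSDARG00000012125) was 1.49-fold lower (log2 fold change -0.58, SE 0.17, adjusted p = 0.0298). That call was lost without replicate 1, 2 or 3 of untreated wild type (adjusted p = 0.0623, 0.0561 and 0.109) and without replicate 1 or 3 of the untreated mutant (adjusted p = 0.0667 and 0.108). The second CRX ID (ENSDARG00000043483) was 1.39-fold lower (log2 fold change -0.48, SE 0.09, adjusted p = 0.00193), PRPH2 (ENSDARG00000038018) 1.28-fold and impg1a 1.27-fold. The count of lower members ran from 18 to 29 when single libraries were left out, and was 18 without replicate 2 of untreated wild type or of the untreated mutant. The count of lower genes among all tested was 1576 in the main fit, and 1106 and 1075 in those fits. Calls lost in at least 1 fit with a single library left out included those of guca1c (adjusted p 0.0515 to 0.153), rcvrna (0.0513 to 0.17), crx (0.0609 to 0.143) and ARR3 ENSDARG00000098475 (0.063 to 0.11). Those of CNGA3 ENSDARG00000070726 (0.0509 to 0.137), RCVRN ENSDARG00000009637 (0.0556 and 0.0558) and ROM1 (0.0517 and 0.0562) were lost too. So were those of guca1g (0.0524 and 0.0529) and RGS9 ENSDARG00000037925 (0.0506). The single higher gene was rom1a, 1.33-fold (log2 fold change 0.41, SE 0.11, adjusted p = 0.0181). It was not called without replicate 3 of untreated wild type (adjusted p = 0.0748) or without replicate 1 or 2 of the untreated mutant (adjusted p = 0.0716 and 0.125).

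**Figure D3:**
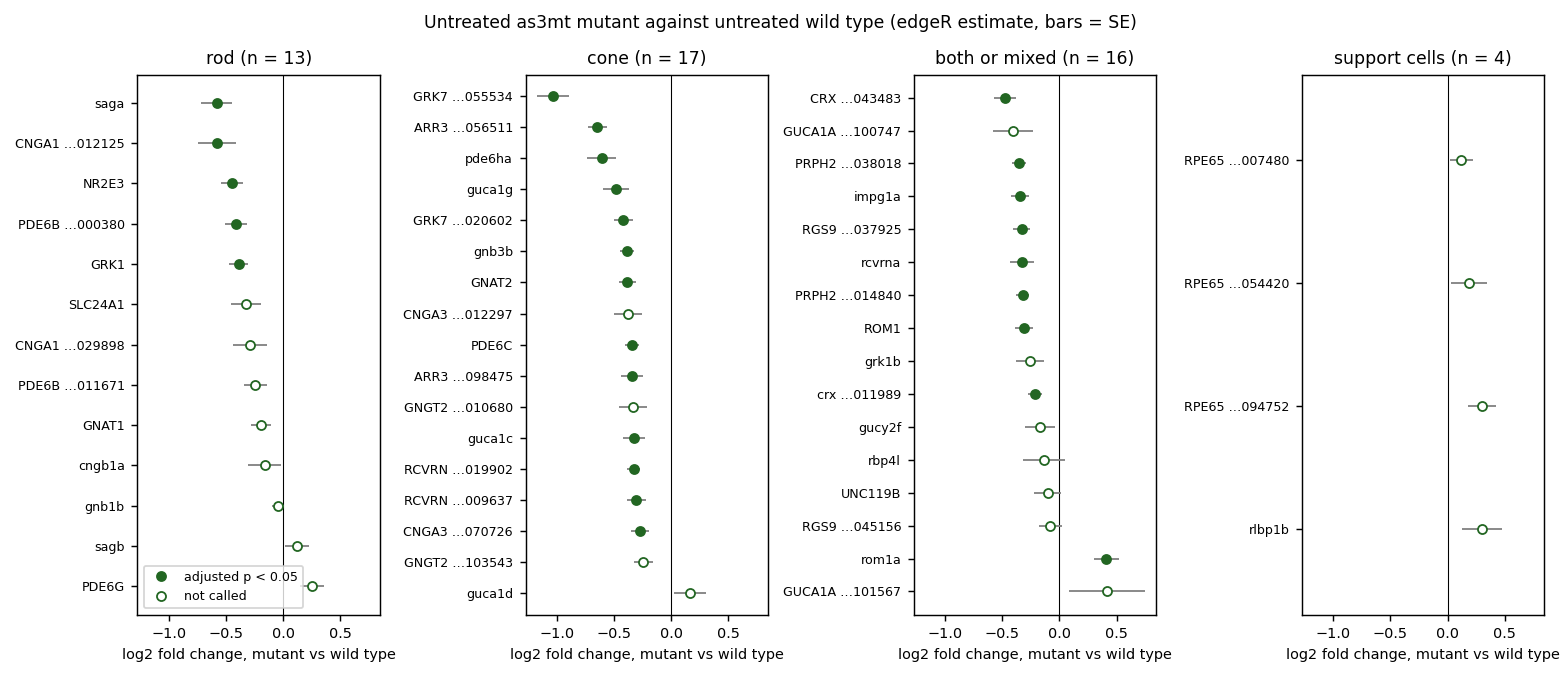
Log2 fold change (x axis) of each of the 50 genes in the untreated mutant against untreated wild type, by class, with standard errors as bars, filled where the adjusted p was below 0.05. Filled points lie left of 0 for 26 genes and right of 0 for rom1a, and the 4 support genes are all open and to the right of 0.

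Under arsenic the mutant was lower than wild type for 44 of the 50 genes and higher for 2, against 27.9% and 22.5% of all genes (50.4% in either direction). The medians were -0.90 for cone, -0.86 for rod, -0.65 for mixed and -0.96 for support genes, where that of all genes was -0.04. Among cone genes guca1d was 10.9-fold lower (log2 fold change -3.45, SE 0.20, adjusted p = 4.25e-10), the low GRK7 copy (ENSDARG00000055534) 6.99-fold lower (log2 fold change -2.81, SE 0.17, adjusted p = 7.16e-10) and pde6ha 3.45-fold lower (log2 fold change -1.79, SE 0.13, adjusted p = 6.4e-09). Among rod genes GRK1 was 2.71-fold lower (log2 fold change -1.44, SE 0.09, adjusted p = 1.14e-09), GNAT1 2.70-fold lower (log2 fold change -1.43, SE 0.09, adjusted p = 1.83e-09) and CNGA1 (ENSDARG00000029898) 2.21-fold lower (log2 fold change -1.14, SE 0.16, adjusted p = 1.77e-05). Of the mixed and support genes, gucy2f was 2.38-fold, rlbp1b 2.38-fold and impg1a 2.23-fold lower. The 2 higher genes were the rising GNGT2 copy (ENSDARG00000010680), 1.47-fold (log2 fold change 0.56, SE 0.12, adjusted p = 0.00107), and the low GUCA1A copy (ENSDARG00000101567), 2.29-fold (log2 fold change 1.19, SE 0.30, adjusted p = 0.00322). RPE65 (ENSDARG00000094752) was not lower by the test without replicate 1 of the treated mutant (adjusted p = 0.0521). The 4 not called were gnb1b, UNC119B, GUCA1A (ENSDARG00000100747) and CRX (ENSDARG00000043483).

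The responses of the genotypes differed for 30 of the 50 genes, where they did for 30.2% of all genes. Of these, 28 had a lower and 2 a higher response in the mutant, against 17.9% and 12.3% of all genes. Lower responses were called for 10 of 17 cone, 8 of 13 rod, 6 of 16 mixed and 4 of 4 support genes. The median interaction was -0.55 for cone, -0.73 for rod, -0.37 for mixed and -1.11 for support genes. With library sizes alone in place of scaling factors the median of all genes moved to -0.12 from -0.05, and 37 members had a lower response. Of all 23096 genes, 5100 had a lower response under that setting and 4142 in the main fit. The log2 fold change was lower in the mutant for 45 of the 50 genes (90.0%), and for 54.2% of all genes. Across the 50 genes the responses of the genotypes, which share no library, had a Spearman correlation of 0.537 and a Pearson correlation of 0.504, where over all 23096 genes these were 0.703 and 0.717. Genes within a library are not independent, and these values are descriptions. The treated mutant had the lowest of the 4 group means for 45 of the 50 genes (37.2% of all genes), and untreated wild type the highest for 39 (23.3% of all genes). For 26 genes the order was untreated wild type, untreated mutant, treated wild type, treated mutant, and for 11 the middle groups were exchanged.

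Summed over each class, cone genes held 3746 to 3911 CPM in untreated wild type, 2308 to 2688 in treated wild type, 2838 to 3072 in the untreated mutant and 1313 to 1454 in the treated mutant. Rod genes without gnb1b, whose level was steady in all libraries, held 397 to 446, 267 to 334, 319 to 363 and 141 to 149 CPM in the same order. Genes with high counts weigh most in these sums. Of a mean cone sum of 3830 CPM in untreated wild type, GNAT2 held 732 and PDE6C 606. From the group means, the cone sum was 1.54-fold lower in treated than untreated wild type and 2.13-fold lower in the treated mutant. The rod sum was 1.40-fold and 2.38-fold lower without gnb1b. With gnb1b, over all 13 rod genes, it was 1.24-fold and 1.58-fold lower, so that the rod fall in the mutant was larger than the cone fall without gnb1b and smaller with it. The ratio of the cone sum to the rod sum without gnb1b, taken only to compare libraries, was 8.41, 9.63 and 9.86 in untreated and 8.05, 8.65 and 8.65 in treated wild type. In the mutant it was 8.02, 8.45 and 9.04 untreated and 9.05, 9.16 and 10.3 treated. With gnb1b included the ratio was 5.50, 6.15 and 6.24 in untreated and 4.71, 4.82 and 4.87 in treated wild type, and 4.82, 5.34 and 5.34 and 3.62, 3.76 and 4.13 in the mutant. The direction of the mutant ratio thus depended on gnb1b: treated libraries had the higher ratios without it, by a narrow gap, and the lower ones with it. The support genes held 116 to 141 CPM in untreated and 106 to 128 in treated wild type, which overlap, and 134 to 145 and 53.4 to 70.7 in the mutant.

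**Figure D4:**
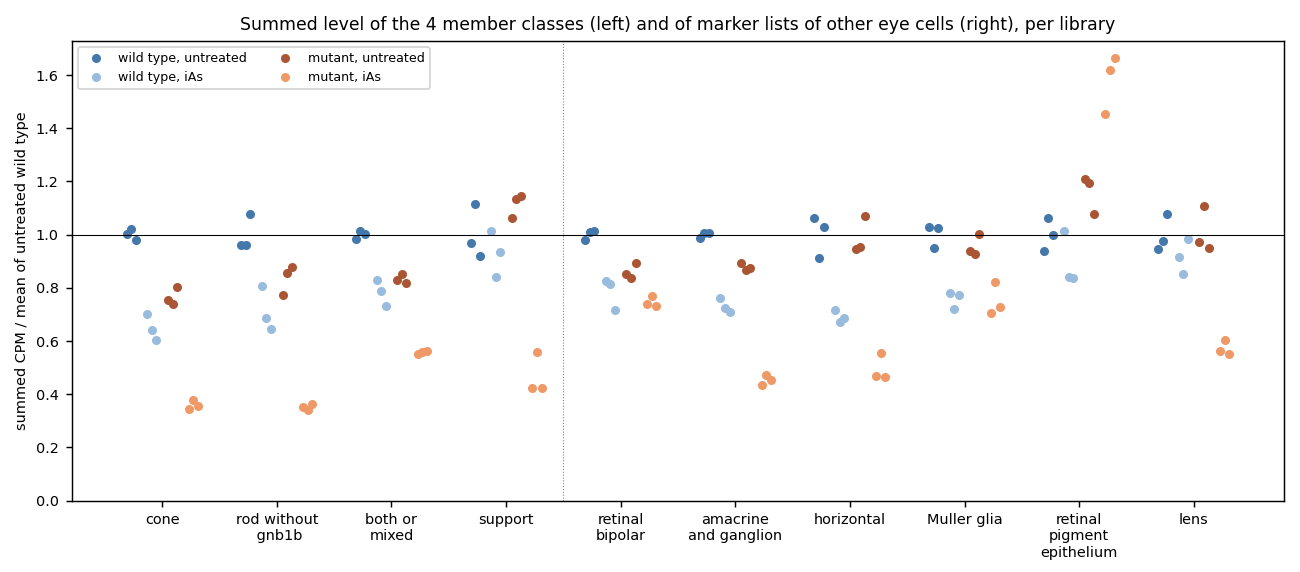
Summed CPM of each class (left of the dotted line) and of marker lists of other eye cells (right), per library, divided by the mean of untreated wild type (y axis from 0). The cone sums and the rod sums without gnb1b of the treated mutant lie below those of all other libraries, and the list for the pigment epithelium is highest in the treated mutant.

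Other genes of the pathway gave a mixed picture. Of 5 lists with 92 IDs in all, 90 were tested, and 42 fell and 7 rose in wild type, with 49 and 15 in the mutant. Those shares were 46.7% lower and 7.78% higher in wild type, against 22.2% and 22.6% of all genes, and 54.4% lower and 16.7% higher in the mutant, against 32.6% and 31.1%. The median log2 fold changes over the 5 lists were -0.25 and -0.38. Of 20 other phototransduction genes 13 fell in wild type and 15 in the mutant, and 0 rose in either. They were led by PDE6H, a further inhibitory subunit gene, 2.95-fold lower in treated wild type and 4.36-fold lower in the treated mutant, and by the exchanger gene SLC24A4 (ENSDARG00000015425), 3.27-fold lower in the mutant. Among genes of the outer segment and cilium, 23 of 24 were tested, 7 fell and 4 rose in wild type, and 6 and 5 in the mutant. In the mutant these were 26.1% lower and 21.7% higher, below the 32.6% and 31.1% of all genes in both directions. Here rpgra, a cilium gene, fell 3.12-fold and the axoneme gene rp1 2.02-fold in the mutant.

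In the synapse list 15 of 16 genes were tested, and 11 fell and 2 rose in the mutant, with the glutamate transporter SLC17A7 (ENSDARG00000016480) 2.46-fold and the complexin CPLX3 (ENSDARG00000062508) 2.42-fold lower. In wild type 10 fell and 1 rose. The mutant shares were 73.3% lower and 13.3% higher, against 32.6% and 31.1% of all genes. Of 15 transcription genes 5 fell and 0 rose in wild type, and 6 fell and 4 rose in the mutant. The mutant shares, 40.0% lower and 26.7% higher, were near those of all genes (32.6% and 31.1%). The cone factor gene six7 rose 2.15-fold there and the nuclear receptor gene RORB fell 2.06-fold. Of 17 visual cycle genes 7 fell and 2 rose in wild type, and 11 and 4 in the mutant, where the shares were 64.7% lower and 23.5% higher. Transthyretin, TTR, a carrier of thyroid hormone made mainly by the liver, fell 9.43-fold and the retinol dehydrogenase RDH8 (ENSDARG00000099217) 3.43-fold in the mutant.

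Genes listed as markers of other eye cells moved as well, and their part in the photoreceptor results was not tested. The libraries came from whole larvae, so the values of these lists, here and below, also hold any expression outside the eye. They cannot be assigned to the named cell types. Counts over these lists are to be read against the shares of all genes, 22.2% lower and 22.6% higher in wild type and 32.6% and 31.1% in the mutant. Of 15 amacrine and ganglion cell genes 13 fell in wild type and 14 in the mutant, and their sum was 968 to 986 CPM in untreated and 694 to 744 in treated wild type, and 849 to 876 and 426 to 462 in the mutant. The glycine transporter SLC6A9 fell 3.05-fold and POU4F2, a ganglion cell factor, 2.43-fold in the mutant. Of 9 bipolar cell genes 4 fell and 0 rose in wild type, and 5 fell and 3 rose in the mutant. The bipolar sums were 221 to 229, 162 to 186, 189 to 201 and 165 to 174 CPM in the same order. The bipolar genes went both ways in the mutant: the glutamate receptor GRM6 (ENSDARG00000017742) was 4.24-fold and the kinase PRKCA 2.05-fold lower, while the transcription factor VSX1 was 1.57-fold, the calcium-binding protein cabp5a 1.42-fold and the channel TRPM1 1.22-fold higher. Of 4 horizontal cell genes 3 and 3 fell, with sums of 46.5 to 54.1, 34.3 to 36.5, 48.2 to 54.6 and 23.8 to 28.3 CPM, and OMP (ENSDARG00000032380) fell 2.63-fold in the mutant. Of 8 genes listed for Müller glia 6 fell in each genotype and 1 rose in the mutant, with sums of 1818 to 1966, 1380.1 to 1492, 1772 to 1920.5 and 1349 to 1574 CPM. The glutamate transporter SLC1A3 (ENSDARG00000043148) fell 3.45-fold and the carbonic anhydrase cahz 2.21-fold in the mutant. The rising gene was a glutamine synthetase copy, GLUL (ENSDARG00000100003), 1.88-fold higher. The list also held rlbp1a, whose place in Müller glia rather than pigment epithelium was not checked. It was not called in the mutant (log2 fold change -0.05, adjusted p = 0.577).

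The list for pigment epithelium, without RPE65, had higher sums in the treated mutant. Its sums were 173 to 196 CPM in untreated and 154 to 186 in treated wild type, and 198 to 222 and 267 to 306 in the mutant. Of its 7 genes 3 rose and 2 fell there, with pmela 1.93-fold higher and RGR 1.72-fold lower, and 2 fell in wild type. Melanin genes such as pmela are expressed in the pigment cells of the skin too. Of 8 lens genes 3 fell and 1 rose in wild type and 7 fell in the mutant. The lens sums were 1199 to 1365, 1081 to 1245, 1204 to 1401 and 696 to 765 CPM, and CRYBB1, a crystallin, fell 2.34-fold in the mutant. Of 6 genes of the retinal stem zone, several of them shared by all dividing cells, 3 fell in wild type and 5 in the mutant, with sums of 639 to 658, 576 to 585, 590.3 to 625 and 371 to 471 CPM. The replication gene MCM5 fell 2.60-fold and the microtubule regulator STMN1 (ENSDARG00000004169) 2.31-fold in the mutant. The pineal organ has photoreceptors of its own, and of its 4 markers 3 could be tested. Their sum was 8.52 to 8.75 CPM in untreated and 13.02 to 14.6 in treated wild type, and 9.03 to 9.22 and 10.5 to 12.6 in the mutant. The melatonin synthesis gene aanat2 rose 2.22-fold and 2.10-fold, and ASMT, the last enzyme of that path, fell 1.75-fold in the mutant. No gene of the cell type lists was at 0 counts in any library.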

How the data were processed

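The deposited files hold raw read counts per Ensembl gene ID, 1 file for each of 12 libraries made from pools of 10 larvae. FastQC 0.11.5, Trimmomatic 0.36 and the GRCz10 build are named in the submitters' processing notes. No aligner, counting program or strand setting is stated in these notes or in the labels. A name table paired 26269 of the 32105 IDs with a symbol.

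All genes were fitted together with edgeR 4.0.16 in R 4.3.3 (TMM scaling, filterByExpr with a minimum count of 10, 1 fit of the 4 groups, quasi-likelihood test). Benjamini-Hochberg adjustment ran over 23096 genes, and a gene was called at an adjusted p below 0.05. CPM were scaled by the same factors and are not per gene length, so levels of single genes were not compared with each other. Class sums add CPM over genes and are weighted to the genes with the most counts. Totals of 28909467 to 43759270 counts set the counting precision. DESeq2 1.42.0 was an alternative. The members and lists were chosen with earlier results of these data known. Genes given in full were those called in the interaction and the up to 3 largest called changes per class in each other comparison, and of each other list up to 2 genes. The remaining members were added to account for every gene. The labels tag the replicates cl1 to cl3 without explaining the tag, and do not state separate clutches. The p-values therefore measure the spread between these pools, which may be partly technical. Same-numbered libraries did not deviate together (0 of 18 pairs had a correlation over 0.1), so no pairing was used.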

Additional observations from a re-analysis of the deposited data

Results flagged for a closer look

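The response to iAs differed between the genotypes for 30 of the 50 genes by a test of the difference itself (edgeR quasi-likelihood interaction, adjusted p below 0.05 over 23096 genes, 3 libraries per group). Of all genes 30.2% differed, 17.9% with a lower and 12.3% with a higher response in the mutant. Each value here is the log2 response of the mutant minus that of wild type. Among cone genes the differences were guca1d -3.61, GRK7 (ENSDARG00000055534) -1.77, pde6ha -1.18, GRK7 (ENSDARG00000020602) -0.88, guca1g -0.72, ARR3 (ENSDARG00000098475) -0.72, GNAT2 -0.70, CNGA3 (ENSDARG00000070726) -0.60, PDE6C -0.55 and RCVRN (ENSDARG00000009637) -0.52. Among rod genes the differences were GNAT1 -1.24, GRK1 -1.05, sagb -0.98, PDE6B (ENSDARG00000011671) -0.90, PDE6G -0.88, CNGA1 (ENSDARG00000029898) -0.85, cngb1a -0.73 and PDE6B (ENSDARG00000000380) -0.54. Among mixed genes the differences were rom1a -1.36, gucy2f -1.08, impg1a -0.82, ROM1 -0.44, RGS9 (ENSDARG00000037925) -0.41 and PRPH2 (ENSDARG00000014840) -0.27. Among support genes the differences were rlbp1b -1.55, RPE65 (ENSDARG00000007480) -1.17, RPE65 (ENSDARG00000054420) -1.06 and RPE65 (ENSDARG00000094752) -0.73. A higher response in the mutant was found for CRX 0.45 and GNGT2 (ENSDARG00000010680) 0.89. No group had the 4 samples needed to test for single libraries standing apart. Chi-square per degree of freedom over all genes, higher where 2 replicates differ more, was described instead. Treated mutant pairs with replicate 1 had 21.5 and 17.2, and the other pair 8.22. Untreated mutant pairs with replicate 3 had 14.3 and 11.6, and the other pair 5.62. Wild-type pairs had 5.18 to 5.68 untreated and 8.04 to 9.67 treated.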

How the results depend on the processing

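The counts of members called lower in iAs were 36 in wild type and 44 in the mutant under each of the 7 alternatives of scaling, tool, filter, block and libraries fitted, and 33 to 38 and 44 to 44 when single libraries were left out. In the untreated mutant 26 were lower, 22 with library size alone and 30 with only the libraries compared, and 18 to 29 with single libraries left out. The lower count over all genes moved the same way. It was 1576 of 23096 in the main fit, 1326 of 23096 with library size alone and 1812 of 22356 with only the libraries compared. For treated mutant against treated wild type the count of 44 ran from 43 to 44. The interaction count of 28 lower was 37 with library size alone, 32 with no filter and 28 to 32 without single libraries. Over all genes the lower interaction count of 4142 of 23096 was 5100 of 23096 with library size alone and 4150 of 28704 with no filter. Among genes called higher, the mutant count of 2 in iAs was 1 with a mean count of at least 50 and 1 to 4 without single libraries, and that for treated mutant against treated wild type was 1 with a mean count of at least 50, which removes the low GUCA1A copy. The count of 1 in the untreated mutant was 0 to 1, and that of 2 for the interaction 1 to 3, without single libraries. With the replicate number as a block (replicate block), 36, 44, 26, 44 and 30 members were lower in wild type, in the mutant, between untreated genotypes, between treated genotypes and in the interaction, and 0, 2, 1, 2 and 2 higher. Of 1412 alternative values for 76 named changes, 1397 kept their direction and their side of the threshold, 15 missed the threshold, all with single libraries left out, and 0 reversed. The named changes were all called in the main fit, so none of them could gain a call. Over all 250 pairs of member and comparison, leaving out single libraries lost a call for 19 and gained one for 17, and the cause was not tested. The rod median in the mutant of -0.96 was -0.96 with only IDs whose symbol is the listed one. It was -0.76 when IDs that share a symbol were left out too. That last restriction was chosen after seeing the data, as were the rod medians without gnb1b and NR2E3 and the rod sums with and without gnb1b. Cone medians under these restrictions, and medians with some mixed genes counted as rod or cone genes, are not given here. These values therefore do not compare rods with cones.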
